A study of Mus musculus with 2 samples.

Results

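The mir-26 family of the mouse comprises 3 miRNA genes, Mir26a-1, Mir26a-2 and Mir26b, and its counts were examined in the adrenal gland. The members were taken by gene name from GENCODE M21, and they are 3 of the 2202 miRNA genes in the count tables. The family was chosen with earlier results of these data known. The tissue came from adult male mice of the strain 5xFAD/CAST, aged 8 to 10 months. In this name, 5xFAD is a transgenic model of Alzheimer's disease and CAST an inbred strain derived from wild mice. There were 2 microRNA-seq libraries, labelled biological replicates 1 and 2 of a single group, so there was no contrast between conditions. The labels give both libraries the same donor record and do not say whether the glands came from separate animals, nor whether these animals carried the transgene. The spread between the libraries may therefore be partly technical.

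A microRNA is cut from a hairpin in a longer transcript, first in the nucleus and then in the cytoplasm, and guides a silencing complex to messenger RNAs that pair with its seed, bases 2 to 8 from the 5′ end. Members of the mir-26 family lie in introns of the Ctdsp genes, which encode small phosphatases that act on the tail of RNA polymerase II and on the retinoblastoma protein. The 5p arm is the main product of these hairpins, and the family is known as a restraint on cell cycle entry and on the histone methyltransferase gene Ezh2.

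The 3 hairpins are shown first because their sequences set which reads can be assigned to which gene. They are given as RefSeq lists them on GRCm38.p6, plus strand, in lower case with the annotated 5p and 3p arms in capitals. Mir26b lies at chr1:74394310-74394394, Mir26a-2 at chr10:126995530-126995613 and Mir26a-1 at chr9:119031796-119031885. The GENCODE M21 hairpins of the 3 genes were identical to these.
Mir26b: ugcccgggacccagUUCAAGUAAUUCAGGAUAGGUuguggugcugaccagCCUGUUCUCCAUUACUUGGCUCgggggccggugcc
Mir26a-2: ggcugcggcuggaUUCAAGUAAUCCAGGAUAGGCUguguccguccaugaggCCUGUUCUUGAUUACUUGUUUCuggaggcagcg
Mir26a-1: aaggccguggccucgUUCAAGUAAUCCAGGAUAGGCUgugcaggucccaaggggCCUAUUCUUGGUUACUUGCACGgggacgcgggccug

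The mature 5p sequences carry the family seed, which is in capitals in the next lines. The first belongs to both Mir26a genes and the other to Mir26b.
miR-26a-5p: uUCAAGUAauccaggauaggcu
miR-26b-5p: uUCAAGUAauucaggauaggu
Counted from 1 at the 5′ end of miR-26a-5p, the first 21 bases differ from miR-26b-5p by C11U and C21U, both outside the seed, and miR-26a-5p is 22 bases long. Among the 1058 genes with a mature sequence in the RefSeq table, this 5p seed occurred in the 3 mir-26 genes and in no other.

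The 3p arms tell the 3 loci apart, and their seeds are again in capitals.
miR-26a-1-3p: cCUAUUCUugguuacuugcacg
miR-26a-2-3p: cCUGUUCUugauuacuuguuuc
miR-26b-3p: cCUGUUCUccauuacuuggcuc
The 3p arms of Mir26a-1 and Mir26a-2 differed at 6 of 22 bases, and A4G lies in the seed. Those of Mir26a-2 and Mir26b differed at 4 of 22 bases (U9C, G10C, U19G and U20C) and had the same seed, which 2 further genes of the table also carry, Mir6932 and Mir7039. The 3p arms of Mir26a-1 and Mir26b differed at 8 of 22. The loci thus pair differently by arm: Mir26a-1 and Mir26a-2 share the whole 5p sequence, while Mir26a-2 and Mir26b share the 3p seed.

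The hairpins of Mir26a-1 and Mir26a-2 had a shared run of 25 bases, the 22 bases of miR-26a-5p and the 3 that follow it. Of the 22-base windows of a hairpin, read on its own strand, 4 of 69 in Mir26a-1 and 4 of 63 in Mir26a-2 occurred in another annotated hairpin, and 0 of 64 in Mir26b did. The shared windows of both Mir26a genes begin at the first base of miR-26a-5p or up to 3 bases after it. A read of exactly miR-26a-5p, or one with the next 3 genomic bases added, therefore matches both loci equally well. A read of a 3p arm, or of the 5p arm with 1 more genomic base at its 5′ end, matches 1 of them. The longest run that Mir26b had in common with Mir26a-1 was 11 bases, and with Mir26a-2 10 bases. Within 2 mismatches of another mir-26 hairpin were 6 of 64 windows in Mir26b, and 8 in each Mir26a gene with the exact matches included. The mismatches permitted in the counting are not known, and an effect of such near matches on the counts was not tested. Over whole hairpins, identity in a global alignment was 70.0% between the Mir26a genes, 67.0% between Mir26b and Mir26a-1 and 66.3% between Mir26b and Mir26a-2.

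**Figure D1:**
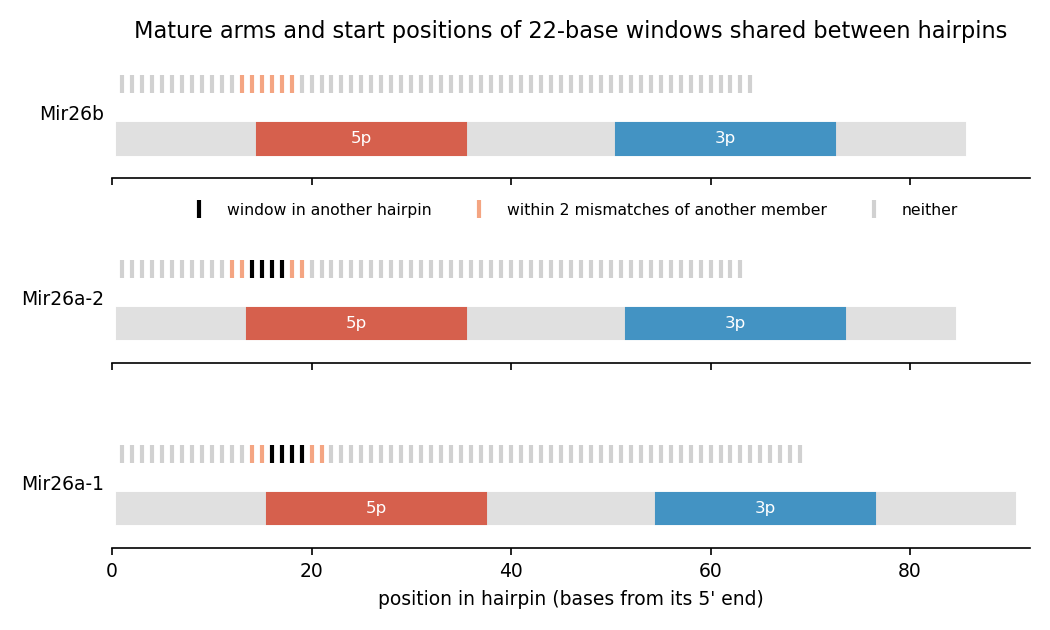
The 3 mir-26 hairpins to scale, with position in bases from the 5′ end of each hairpin, the 5p arm in red, the 3p arm in blue and a tick at the start of each 22-base window. Black ticks, 4 in each Mir26a hairpin and 0 in Mir26b, mark windows present in another annotated hairpin, and orange ticks mark windows within 2 mismatches of another mir-26 hairpin.

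Predicted folds of the hairpins were alike in strength. The minimum free energy was −43.5 kcal per mol for Mir26b (85 bases, 58.8% GC), −44.5 for Mir26a-2 (84 bases, 53.6% GC) and −49.4 for Mir26a-1 (90 bases, 60.0% GC). Between 75.6% and 77.6% of the bases of each hairpin were paired in that structure.

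All 3 hairpins lay on the strand of their host gene, in an intron at nearly the same place of the coding sequence. Mir26b lay in intron 4 of 6 of Ctdsp1, with 405 coding bases downstream of that intron. Mir26a-2 lay in intron 5 of 7 of Ctdsp2 and Mir26a-1 in intron 5 of 7 of Ctdspl in the longest transcripts, each with 402 coding bases downstream. The introns differed in size. That of Ctdsp1 spans 564 bases, that of Ctdsp2 1946 bases and that of Ctdspl 3283 bases.

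Mir26b sat close to both exons of its short intron, 234 bases after the upstream exon and 245 bases before the downstream one. Mir26a-2 lay 241 bases before its downstream exon but 1621 bases after the upstream one, and Mir26a-1 lay 1543 and 1650 bases from its exons. In Ctdsp2, a shorter protein-coding transcript and a retained-intron transcript begin at the last base of the Mir26a-2 hairpin, so the annotation places 1 base of it in an exon. The hairpins of Mir26b and Mir26a-1 overlapped no exon of an annotated host transcript. The libraries measured small RNA, and the level of the host transcripts was not measured.

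**Figure D2:**
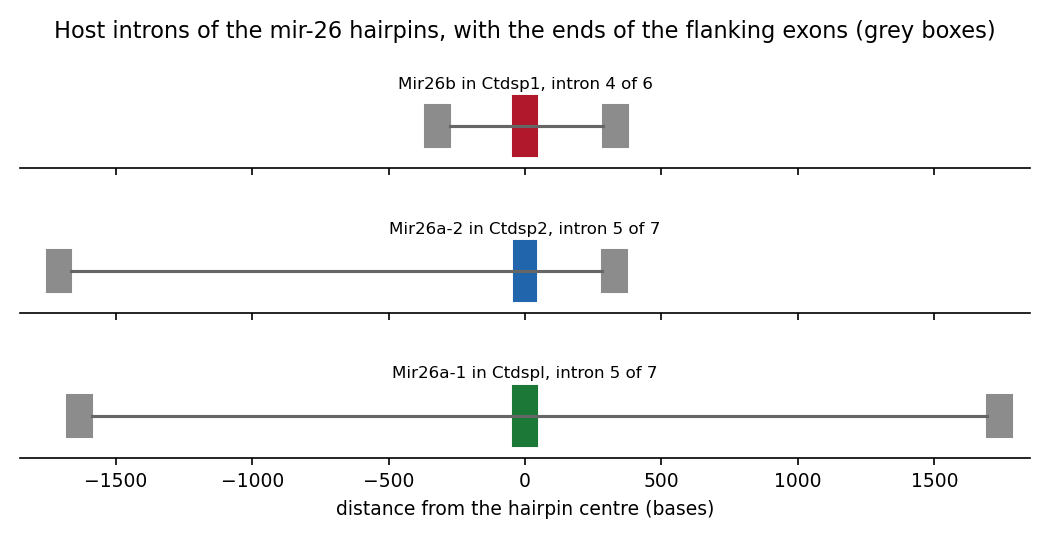
Host introns (lines) of the 3 hairpins (coloured boxes), with the ends of the flanking exons as grey boxes, on a scale of bases from the hairpin centre. The intron of Ctdsp1 is the shortest of the 3 at 564 bases, and Mir26a-1 lies 1543 and 1650 bases from its exons.

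None of the 3 genes had a neighbour that was read at a comparable level. The nearest annotated miRNA gene to Mir26a-2 was Mir546, 2826 bases away on the same strand, with 0 reads in replicate 1 and 1 read in replicate 2. For Mir26b it was Mir1928 at 187689 bases and for Mir26a-1 Gm22008 at 1032365 bases, both with 0 reads in both libraries.

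Replicate 1 held 6783227 reads on the strand of miRNA genes (sense reads) and replicate 2 held 3084602, which were 51.4% and 47.6% of all reads in the tables. CPM here is the sense count of a gene per 1000000 such reads. The upper limit that 0 counts leave, 3 reads, equals 0.442 CPM in the first library and 0.973 CPM in the second. Reads that matched several places were assigned to no gene and made up 30.3% and 32.1% of all reads. As a check of the tissue, Mir375, a marker of neuroendocrine cells such as those of the medulla, stood at 58717 and 82443 CPM. The striated muscle genes Mir1a-1, Mir1a-2, Mir133a-1 and Mir133a-2 had 0 reads in both libraries, but these 4 share 20 bases with another hairpin, so their 0 sets no upper limit. The other gene of the striated muscle list, Mir206, shares no such run. It held 25 and 11 reads in replicates 1 and 2, or 3.69 and 3.57 CPM.

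Mir26b (ENSMUSG00000065468.1) was by far the most read of the 3 genes. It held 129227 reads in replicate 1 and 136812 in replicate 2, so the library with less than 50% of the depth gave slightly more reads. As CPM these are 19051 (exact Poisson 95% interval 18947 to 19155) and 44353 (44118 to 44589), with a mean of 31702 ± 17891 (SD, n = 2). The intervals of the libraries do not overlap, and each covers only the counting error of reads in 1 library. The tables give no molecular identifiers, so the counting error of molecules may be larger. Mir26b ranked ninth by mean CPM, 16 in replicate 1 and 8 in replicate 2.

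Mir26a-2 (ENSMUSG00000065430.1) held 114 reads in replicate 1 and 94 in replicate 2. This is 16.8 CPM (13.9 to 20.2) and 30.5 CPM (24.6 to 37.3), with a mean of 23.6 ± 9.66 (SD, n = 2) and rank 236. Mir26a-1 (ENSMUSG00000065513.1) held 24 reads in replicate 1 and 63 in replicate 2. This is 3.54 CPM (2.27 to 5.26) and 20.4 CPM (15.7 to 26.1), with a mean of 12.0 ± 11.9 (SD, n = 2) and rank 276. Both Mir26a genes were low in both libraries, and each was higher in replicate 2. The shared 5p sequence is present at both loci, and the tables assign multimapping reads to no gene, so these counts may be lower limits and cannot be read as the level of miR-26a-5p. Whether such reads were lost was not tested. The tables do not say from which arm the counted reads came.

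The 3 genes together held 1.91% (Wilson 95% interval 1.90 to 1.92) of the sense reads of replicate 1 and 4.44% (4.42 to 4.46) of those of replicate 2. Within the family, Mir26b held 99.9% of the assigned reads in each library, and both Mir26a genes together held 138 reads in replicate 1 and 157 in replicate 2. The ratio of Mir26b to Mir26a-2 was 1134 (exact binomial 95% interval 944 to 1374) in replicate 1 and 1455 (1189 to 1801) in replicate 2. Per base of hairpin these ratios were 1120 and 1438. The ratio of Mir26b to Mir26a-1 was 5384 (3619 to 8404) and 2172 (1697 to 2826), so it differed between the libraries beyond counting error. Mir26a-2 stood above Mir26a-1 by 4.75-fold (3.04 to 7.72) and 1.49-fold (1.07 to 2.09) in replicates 1 and 2. That gap did not exceed the replicate difference of Mir26a-1 on the log2 scale. These ratios describe assigned reads, and because the Mir26a counts may be lower limits they do not give the ratio of the mature microRNAs.

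The reads left unassigned were many relative to the family. For each read of Mir26b there were 31.0 multimapping reads in replicate 1 and 15.2 in replicate 2. Per sense read of all miRNA genes there were 0.590 and 0.676. The fall against Mir26b thus reflects the higher share of Mir26b in replicate 2. The loci of the multimapping reads are not recorded. How many of them were miR-26a-5p was not tested. No read of any of the 3 genes lay on the opposite strand in either library. The counts with both strands together were therefore the same as the sense counts for all 3.

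Mir26b was not separated from its neighbours in the order of abundance. Next above it by mean were Mirlet7i at 41775 and 38757 CPM and Mir23b at 32843 and 47239 CPM in replicates 1 and 2. Next below were Mir99a at 31396 and 26235 CPM and Mirlet7d at 26990 and 30205 CPM. Each of these 4 lay above Mir26b in replicate 1, and in replicate 2 Mirlet7i, Mir99a and Mirlet7d lay below it. A pair was called ordered only where both libraries agreed on the order and the smaller gap in log2(CPM + 1) exceeded the replicate difference of either gene. By this rule 1 of the other 19 genes of the top 20 was ordered against Mir26b, Mirlet7g, which lay above it. With gaps taken in CPM, a scale added after the values were seen, 3 were ordered, all above it: Mirlet7g, Mirlet7b and Mir375.

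The neighbours of the Mir26a genes were likewise not ordered against them. Around Mir26a-2 these were Mir294 at 37.3 and 11.0 CPM and Mir1968 at 28.6 and 18.2 CPM, both lower in replicate 2, where Mir26a-2 was higher. Around Mir26a-1 they were Mir190b at 12.7 and 11.7 CPM and Mir412 at 11.5 and 12.3 CPM, each steadier between the libraries than Mir26a-1. On the log2 scale the order of Mir26b above either Mir26a gene did exceed the replicate spread.

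**Figure D3:**
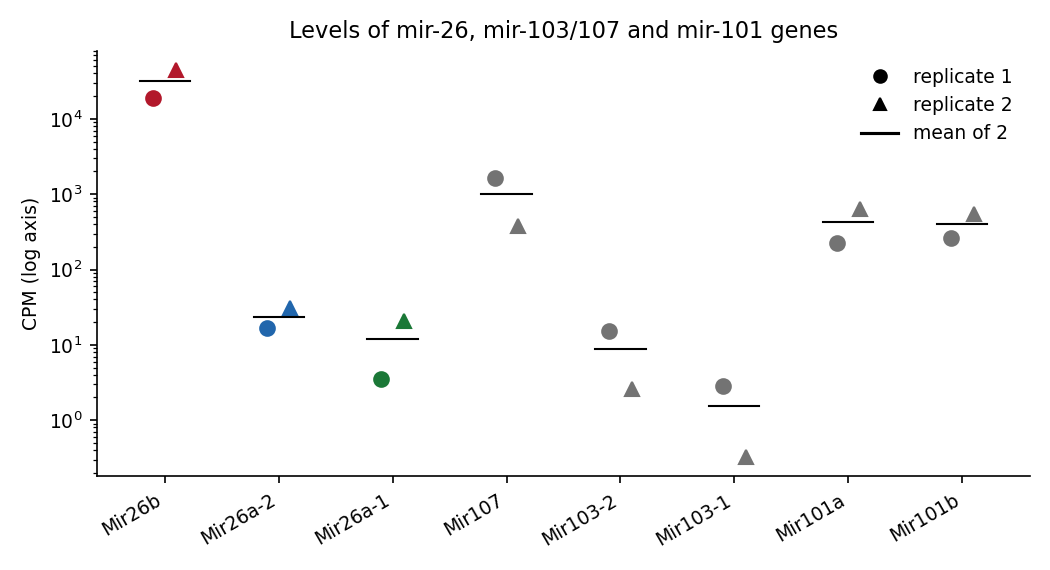
CPM on a log axis for the mir-26 genes (coloured) and for genes of the mir-103, mir-107 and mir-101 families (grey), with replicate 1 as circles, replicate 2 as triangles and the mean of the 2 as a line. Mir26b lies above 10000 CPM in both libraries and both Mir26a genes below 100 CPM, and all 3 are higher in replicate 2.

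The members differed between the replicates in the same direction, to different extents. Mir26b was 2.33-fold higher in replicate 2 (2.31 to 2.35), a difference in log2(CPM + 1) of 1.22. Mir26a-1 was 5.77-fold higher (3.56 to 9.66), with a difference in log2(CPM + 1) of 2.24. Mir26a-2 was 1.81-fold higher (1.37 to 2.40), with a difference in log2(CPM + 1) of 0.82. The folds are ratios of CPM without the added 1, so for both low Mir26a genes they exceed the folds that these log2 differences give. The intervals are exact binomial 95% intervals of the ratio, cover counting error only and compare 2 libraries. With 1 library on each side there is no test of the difference, and it does not bear on animals or conditions.

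A gene was called when it differed at least 2-fold between the libraries, among the 280 genes whose mean reached 10 CPM. Of these, 17 were called higher in replicate 2, or 6.07%, and 13 lower, or 4.64%. Mir26b and Mir26a-1 were called higher and Mir26a-2 was not called. Mir26a-1 passed the minimum of 10 CPM only through replicate 2, where it stood at 20.4 CPM, so its call follows in part from the filter. By log2 difference among the 280 genes Mir26a-1 was at position 1, Mir26b at 8 and Mir26a-2 at 26. With a pseudocount of 5 CPM the position of Mir26a-1 was 3, below Mir301 and Mir370, and those of Mir26b and Mir26a-2 were 7 and 27. That the family was higher in replicate 2 was known from earlier results of these data when it was chosen.

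Of the 20 genes with a mean of at least 10000 CPM, Mir26b was called higher and 0 were called lower when scaled to total sense reads. The next largest differences among these were 0.93 in log2 for Mir139 and −0.93 for Mir10b. With TMM factors Mir26b stood at 1.12 and Mir10b at −1.03, and with DESeq2 size factors at 1.08 and −1.06, so under both of these Mir10b also passed 2-fold, in the other direction. Of the 70 genes with a mean of at least 1000 CPM, 1 was called higher, Mir26b, under each of the 3 scalings. Called lower were 4 with total reads and 5 with TMM or DESeq2 factors. The split of calls over all genes did depend on scaling, from 17 against 13 as scaled here to 12 against 17 with TMM factors and 8 against 17 with DESeq2 size factors (higher against lower). The median gene moved from 0.012 to −0.12 under DESeq2. Relative to that median Mir26b stood at 1.21 under total reads, TMM and DESeq2 scaling alike. This holds by construction, since a change of scaling shifts the log2 difference of every abundant gene by the same amount.

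**Figure D4:**
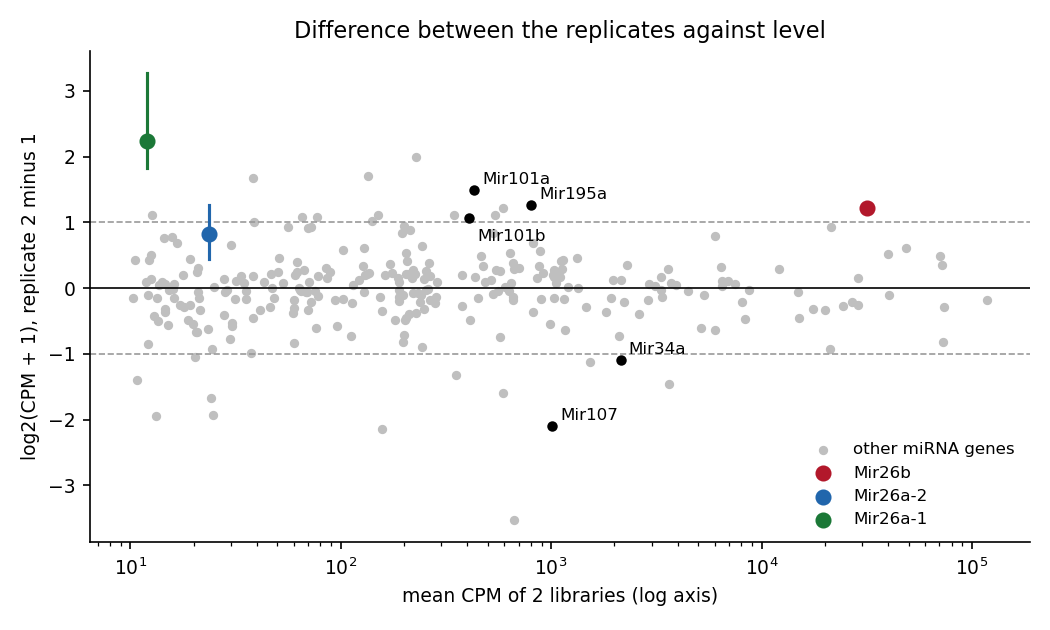
Difference in log2(CPM + 1) between the libraries, replicate 2 minus replicate 1, against mean CPM on a log axis for the 280 genes that reached 10 CPM. Bars on the coloured members are exact 95% intervals of the CPM ratio without the pseudocount, black points are named genes of other families, dashed lines mark 2-fold, and Mir26b lies beyond them at 1.22. Mir10b, at −0.93 here, passes 2-fold under TMM (−1.03) and DESeq2 (−1.06) scaling.

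**Figure D5:**
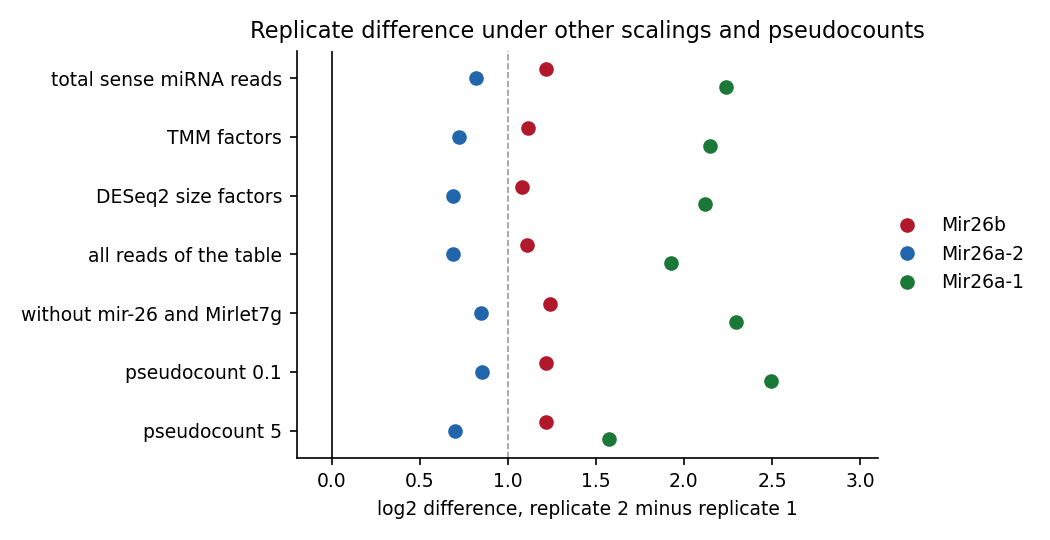
Log2 difference between the libraries of the 3 mir-26 genes under each scaling and pseudocount. All values lie above 0, Mir26b lies between 1.08 and 1.24, and Mir26a-1 ranges from 1.57 to 2.50 with the pseudocount.

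Markers of several cell types also differed between the libraries. The 4 genes of the mesenchyme list summed to 381 CPM in replicate 1 and 843 CPM in replicate 2, mostly from Mir214, while Mir199b was lower, at 21.7 and 4.86 CPM. The 4 neuroendocrine genes summed to 63615 and 87243 CPM, and the difference came from Mir375. Of the others, Mir7b (4535 and 4423 CPM) and Mir7-1 (250 and 233 CPM) were slightly lower in replicate 2. Mir7-2 (113 and 143 CPM) was higher. The 7 epithelial genes summed to 432 and 577 CPM. The epithelial difference came from Mir203, at 386 and 542 CPM, while Mir200c (23.7 and 15.9 CPM) and Mir429 (9.58 and 3.24 CPM) were lower in replicate 2. Lower in replicate 2 were the 2 endothelial genes at 92611 and 52519 CPM, almost all from Mir126a, and the liver marker Mir122 at 257 and 57.7 CPM. The 3 erythroid genes summed to 5556 and 2149 CPM through Mir451a, at 5351 and 1949 CPM, while Mir144 (191 and 187 CPM) and Mir486 (14.2 and 12.6 CPM) differed little. The sums of the smooth muscle list (29493 and 25630 CPM), the leukocyte list (610 and 693 CPM) and the adipose list (3200 and 3575 CPM) differed less. Single members differed more. The leukocyte gene Mir223 was higher in replicate 2, at 38.3 and 73.6 CPM. The adipose gene Mir193b was lower, at 50.0 and 24.6 CPM, and passed 2-fold under TMM (−1.09) and DESeq2 (−1.12). Apart from the 4 striated muscle genes with 0 reads, every listed marker gene had reads in at least 1 library. The part of these differences in that of the mir-26 genes was not tested. In bulk tissue, fewer cells of a type and less of a microRNA per cell cannot be told apart.

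Over the 131 other genes that reached a mean of 100 CPM without a near-identical copy, the 5 with a replicate difference closest to that of Mir26b were Mir214, Mir195a, Mir152, Mir148a and Mir700. Near-identical means sharing 20 bases with another hairpin. Their log2 differences were 1.22 for Mir214, 1.26 for Mir195a, 1.12 for Mir152, 1.11 for Mir148a and 1.02 for Mir700. All 5 were far below Mir26b in level, between 141 and 800 CPM by mean. Likeness rests on 1 difference between 2 libraries, and it is given as a description. Under DESeq2 size factors Mir152, Mir148a and Mir700 fell under 2-fold, at 0.98, 0.98 and 0.89, and under TMM Mir700 did, at 0.92.

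Genes known, beside mir-26, to repress Ezh2 were read at much lower CPM than Mir26b. Of the 5 listed, 4 reached 10 CPM, 2 were called higher in replicate 2 and 0 lower, beside 6.07% higher and 4.64% lower over the 280 genes. Their median log2 difference was 0.46, beside 0.012. So few genes allow no reading of the share. Mir101a stood at 225 and 633 CPM in replicates 1 and 2, and Mir101b at 263 and 550 CPM. Their log2 differences of 1.49 and 1.06 have the direction of Mir26b, but Mir101b fell to 0.96 under TMM and 0.92 under DESeq2. Mir138-1 was at 91.8 and 60.0 CPM and Mir138-2 at 22.4 and 20.1 CPM. All 4 have 20 bases in common with some other hairpin, so each count may be a lower limit, and Mir101c had 0 reads in both libraries.

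Genes of other families that restrain entry into S phase showed no common direction. Of the 12 listed, 10 reached 10 CPM, 1 was called higher and 2 lower, beside 6.07% higher and 4.64% lower over the 280 genes. Their median log2 difference was −0.25, beside 0.012. Mir195a was the one called higher, at 470 and 1129 CPM. Mir34a, a target of p53, was lower in replicate 2 at 2908 and 1364 CPM, and Mir34c was lower at 890 and 293 CPM. Mir16-1 stood at 1203 and 1215 CPM, Mir15a at 1175 and 802 CPM and Mir15b at 258 and 253 CPM. The summed level of the 12 genes was 7466 and 5575 CPM.

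Other families also have copies in introns of related host genes. Mir107 and the Mir103 genes lie in introns of Pank genes, which encode pantothenate kinases. Mir103-1 and Mir103-2 carry the same mature 3p sequence, and that of Mir107 differs from it by G22C alone, counted as above. Mir107 held 1634 and 381 CPM in replicates 1 and 2, while Mir103-2 held 15.0 and 2.59 CPM and Mir103-1 2.80 and 0.324 CPM. Mir107 exceeded Mir103-2 by 109-fold (89.4 to 133) and 147-fold (74.3 to 341) in assigned reads. As in mir-26, the gene with a mature sequence of its own was high and the 2 genes with a copied one were low. Whether the copied sequence lowered those counts was not tested. The direction between libraries was opposite, at −2.10 in log2 for Mir107 and 1.22 for Mir26b, and that contrast was not tested. Mir107 shares 20 bases with the Mir103 genes, unlike Mir26b with the Mir26a genes, so its count may be a lower limit.

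Of the 11 genes of that list, 4 reached 10 CPM, 2 were called higher and 1 lower, beside 6.07% higher and 4.64% lower over the 280 genes. Their median log2 difference was 0.59, beside 0.012. Mir128-1 stood at 17.7 and 58.7 CPM and its copy Mir128-2 at 2.06 and 6.16 CPM. Mir218-2 stood at 13.6 and 14.6 CPM and its copy Mir218-1 at 3.39 and 15.9 CPM. Mir153 stood at 41.6 and 89.2 CPM, and its log2 difference of 1.08 was 0.98 under TMM and 0.95 under DESeq2. Mir208a and Mir208b, in myosin heavy chain genes, had 0 reads in both libraries.

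The 2 Mir26a genes were also placed among all genes whose mature sequence is copied elsewhere. Of the 1018 genes of the tables with a mature sequence by symbol, 94 had one identical to that of a gene at another locus, and 37 of them reached 10 CPM. This is 39.4%, against 23.7% of the 924 genes without such a copy, and the median of the mean CPM was 1.96 and 0.228. At the upper end the order was the other way. Of the 94 genes, 3 reached 1000 CPM, and the highest was Mirlet7f-2 at 3905 CPM. Of the 924, 61 did, and the highest was Mirlet7g at 117872 CPM. Mir26a-2 was at position 26 of the 94 by mean and Mir26a-1 at position 36. Of the 94, 39 had 0 reads in both libraries, and among the 37 that reached 10 CPM Mir26a-1 was next to last. Of the 37 genes, 2 were called higher, Mir26a-1 and Mir128-1, and 1 lower, near the 6.07% and 4.64% over all genes tested. The median log2 difference was 0.077.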

How the data were processed

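Small RNA of mouse adrenal gland was sequenced in 2 libraries of 1 group. The authors deposited read counts per miRNA gene, in 3 columns for both strands, the strand of the gene and the opposite strand. The assembly was mm10 and the annotation GENCODE M21, per the readme that the authors deposited with the counts. The strand columns, which carry no header, were identified from their layout and totals. Aligner, trimming and permitted mismatches were not given in the sources used here. CAST differs from the reference strain, and the effect of CAST variants on the counts was not tested.

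All 2202 identifiers matched GENCODE M21. Mapping lines were left out of totals. Sense counts were scaled to CPM, and differences are log2(CPM + 1), replicate 2 minus replicate 1, for genes of mean CPM of at least 10. No p-value was computed. The alternatives used edgeR 4.0.16 (TMM) and DESeq2 1.42.0 size factors. Folds were predicted with RNAfold 2.7.2 and hairpins aligned with Biopython 1.88. The difference and its interval were tested on simulated Poisson counts without added spread between replicates. The interval assumes such counts, so this test does not bear on the replicate spread of these data. Named genes were the members, their neighbours in rank, the 5 genes nearest in difference and members of the lists. Members of the lists under 100 CPM, the genes at and above 10000 CPM and the markers were named after their values were seen. The members and lists were chosen with earlier results of these data known.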

Additional observations from a re-analysis of the deposited data

Results flagged for a closer look

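Reads that matched several places lie outside the counts used here and exceed what a count of 0 allows. Replicate 1 had 4001595 of them and replicate 2 had 2084009, at loci that are not recorded. Whether they include miR-26a-5p, which is identical at Mir26a-1 and Mir26a-2, was not tested. Groups of 2 libraries are too small to look for an outlying library.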

How the results depend on the processing

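Of 65 values recomputed under alternatives, 51 stayed within a set limit and 14 moved beyond it. The limit was the replicate spread for levels, ranks, the share and ratios, and the counting interval for log2 differences. For counts of called genes it was a fixed fold of the main count, and for the count of ordered genes any change counted as a move. A change of direction was seen in 0 of the 65. Part of this tally was fixed by construction. Leaving out a replicate always moves a mean CPM, or the mean share of the 3 genes, by less than its SD. Levels, ranks and counts of genes have no sign, so no change of direction was possible among them. The log2 difference of Mir26b was 1.12 under TMM, 1.08 under DESeq2 size factors, 1.11 scaled to all reads, 1.24 scaled without the 3 genes and Mirlet7g, and 1.15 with the column for both strands. Scaled to all reads, the mean of Mir26a-2 was 11.6 CPM. Genes called higher numbered 30 with a minimum of 1 CPM, 11 with a minimum of 100 CPM and 8 under DESeq2 size factors, and genes called lower 20 and 8 with those minimums. The first and the second of these change by construction, since more or fewer genes were compared. Leaving out a replicate, Mir26b ranked between 8 and 16, and its ratio to Mir26a-1 ranged from 2172 to 5384. Genes of the top 20 ordered against Mir26b numbered 3 with gaps in CPM, an alternative added after the data were seen; on that scale the order of Mir26b above the Mir26a genes did not exceed the spread. The scalings of the genes of at least 10000 and 1000 CPM and the positions by pseudocount were also added then. Mir26a-1 rests on 24 and 63 reads, which limits its difference. No paired analysis was possible because there is 1 group and no contrast.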
